A study of Homo sapiens with 24 samples.

Results

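The data described here follow how the loss of each transcript changed after knockdown of IGF2BP2 in HepG2 cells. HepG2 is an established line from a human hepatocellular tumour. IGF2BP2 is a cytoplasmic RNA-binding protein with RRM and KH domains, 1 of a family of 3 (with IGF2BP1 and IGF2BP3). The family binds transcripts that carry m6A and is known for slowing their decay, and the study asked whether it also reads internal m7G, a methylated guanosine within mRNA. Actinomycin D blocks transcription, so that transcripts already made are followed as they are lost.

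Of the 24 libraries analysed here, 12 belong to this comparison: 6 from cells transfected with siControl (the AllStars negative control siRNA) and 6 from cells transfected with siIGF2BP2 (pre-designed siRNA from Dharmacon), chosen by their labels, with 2 replicates each after 0, 3 and 6 h of actinomycin D at 5 µg/ml. Every library came from the same cell line, and no untransfected cells were included. Per the labels, a transfected plate was re-seeded into separate plates that were collected at the different times. The study calls its replicates independent, but neither it nor the labels say whether those of a group were separate transfections, and the p-values below measure the spread between these libraries. The 12 siIGF2BP1 and siIGF2BP3 libraries entered the fit, which thus had 1 estimate of the spread for all groups, and served as a comparison.

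The 12 libraries held 40250387 to 74252042 gene reads and 65406 to 119088 reads of the ERCC spike-in RNAs. Levels below are CPM (reads of a gene scaled to the library's effective total) on the TMM scale, which sets the typical gene as the reference in every library. The decay shift is the log2 change from 0 to 6 h in siIGF2BP2 minus the same change in siControl, over 13136 genes. A negative shift means that the transcript was lost more, relative to the typical gene, after IGF2BP2 knockdown, and a positive one that it was lost less. On the ERCC scale, where levels are relative to the spike-in, the median shift of all genes was 0.17, against -0.02 on the TMM scale, so ERCC values are given relative to that median. Of the 10 hepatocyte markers, all were expressed, with TTR the lowest at a median of 61.1 CPM, and of 12 markers of other cell types PTPRC was at 0 in all 12 libraries and ACTA2, at a median of 37.5 CPM, was the highest. In these bulk libraries, fewer cells of a kind and less RNA per cell cannot be told apart.

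The knockdown held at each time. IGF2BP2 was at 169 and 176 CPM at 0 h, 207 and 212 CPM at 3 h and 221 and 233 CPM at 6 h in siControl. In siIGF2BP2 it was at 45.5 and 44.8 CPM at 0 h, 43.5 and 43.9 CPM at 3 h and 51.1 and 49.6 CPM at 6 h. The groups did not overlap at any time, and averaged over the 3 times the level was 23.0% of siControl (log2 difference -2.12 ± 0.02 SE, edgeR quasi-likelihood test, adjusted p = 2.4e-40). The transcript that remained was also lost slightly more: while the level in siControl rose relative to the typical gene, that in siIGF2BP2 stayed near its start, a shift of -0.24 ± 0.06 SE (edgeR quasi-likelihood adjusted p = 0.032), with -0.33 ± 0.06 (adjusted p = 0.007) from 0 to 3 h and 0.09 from 3 to 6 h. The paralogues did not pass the test, with shifts of 0.05 ± 0.04 for IGF2BP1 and -0.02 ± 0.06 for IGF2BP3.

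Few transcripts were called for a change in decay. By edgeR's quasi-likelihood test with Benjamini-Hochberg adjustment, 62 of 13136 genes (0.472%) had a decay shift with an adjusted p under 0.05. Of these, 26 (0.198%) were lost less in siIGF2BP2 and 36 (0.274%) were lost more. All 26 were positive and all 36 negative in replicate 1 alone and in replicate 2 alone, the libraries on which they were called. With these sample numbers, shifts of 0.5 on the log2 scale simulated for this comparison on 13136 genes were recovered for 71% of 100 genes and shifts of 1 for 95%. The genes given a shift were drawn only from those above a minimum mean count. Recovery among tested genes with fewer reads was not measured. The split of the calls moved with the scale: 54 higher and 25 lower with library-size scaling, 60 and 38 with DESeq2, 42 and 29 with a minimum of 5 CPM, 41 and 37 with no filter, and 70 and 2 on the ERCC scale (0.548% of genes), where the median of all genes was itself raised. Of the 26 genes lost less, 25 were called in the same direction on the ERCC scale, and of the 36 genes lost more, 2 were (SMN1 and GUSBP14), with 34 of 36 values negative. The number of calls also rested on single libraries. It was 18 without siControl 0 h replicate 2 (12 lost less and 6 lost more), 36 without siControl 0 h replicate 1, 24 and 34 without siIGF2BP2 0 h replicate 1 and 2, and 39 and 37 without siIGF2BP2 6 h replicate 1 and 2.

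**Figure D1:**
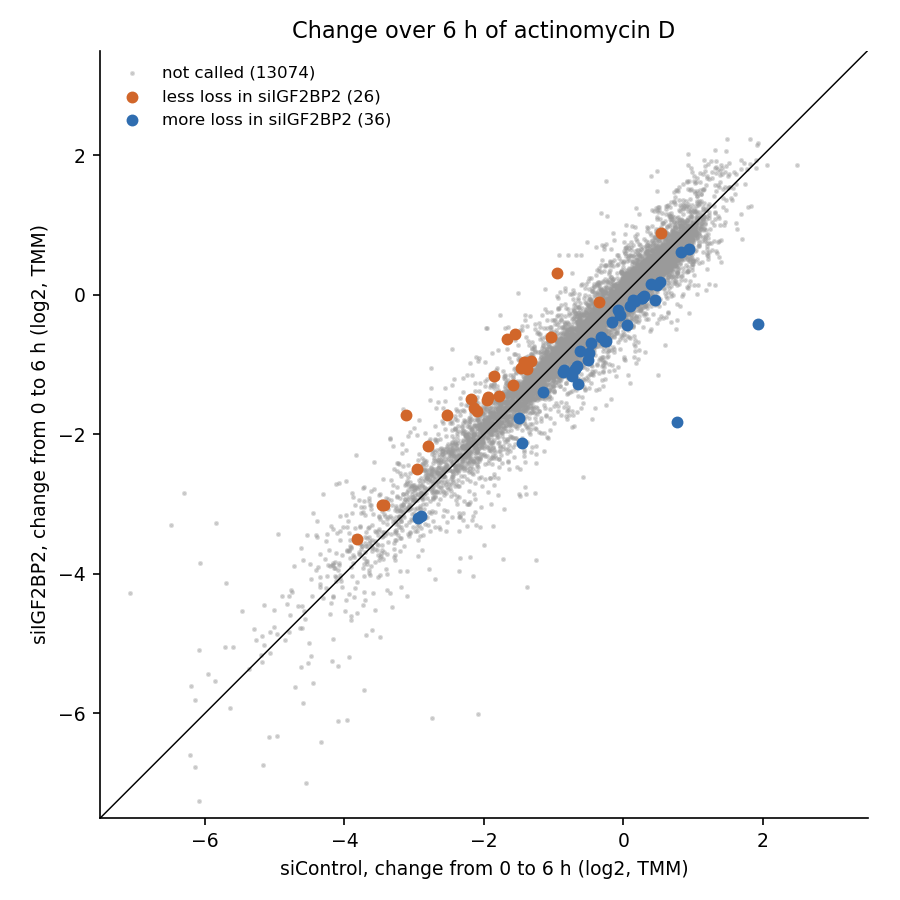
Log2 change from 0 to 6 h of actinomycin D in siControl (x axis) and in siIGF2BP2 (y axis), on the TMM scale, with 1 point a gene and the line of equal change. 7 of 13136 genes lie outside the plotted range. The 26 genes lost less (orange) lie above the line, mostly among genes that fell steeply in siControl, and the 36 genes lost more (blue) lie below it.

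The transcripts lost less were mostly among the short-lived ones. Genes were divided into 4 groups of equal size by their change over 6 h in the siIGF2BP1 and siIGF2BP3 libraries, which share no library with this contrast, and 23 of the 26 genes lost less fell in the group that decayed fastest (0.700% of its 3284 genes). The other groups, from faster to slower, held 2, 0 and 1. The 36 genes lost more were spread over the groups, with 9, 13, 10 and 4 from the fastest to the slowest. Over all 3284 genes of each group the median shift fell in small steps, 0.04, -0.01, -0.04 and -0.05 from the fastest to the slowest. It was -0.02 over all genes. The share of positive values fell in the same order, 57.1%, 47.7%, 36.3% and 29.9%. In replicate 1 alone the medians of the fastest and the slowest group were 0.03 and -0.05, and in replicate 2 alone 0.03 and -0.04. The median change over 6 h of the 26 genes was -1.82 in siControl and -1.37 in siIGF2BP2.

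Of the transcripts lost less, MPHOSPH10, which encodes a component of the U3 snoRNP that processes pre-rRNA, had the smallest p and was the 1 call among 111 tested ribosome biogenesis factors. It was at 237 and 243 CPM at 0 h, 91.5 and 89.6 CPM at 3 h and 31.0 and 30.8 CPM at 6 h in siControl and at 251 and 255 CPM at 0 h, 108 and 102 CPM at 3 h and 44.3 and 45.1 CPM at 6 h in siIGF2BP2. The siIGF2BP2 libraries were slightly higher at 0 h and further apart from siControl at 6 h, and the shift was 0.45 ± 0.06 SE (edgeR quasi-likelihood adjusted p = 4.3e-05). PNRC2, an adaptor between nonsense-mediated decay and decapping, fell from 102 and 100.4 CPM at 0 h to 23.4 and 22.6 CPM at 6 h in siControl and from 111 and 114 CPM to 36.3 and 36.8 CPM in siIGF2BP2. Its shift was 0.52 ± 0.08 SE (edgeR quasi-likelihood adjusted p = 2.3e-04), with 0.29 of it before 3 h and 0.24 after. SFSWAP, a splicing regulator, went from 94.4 and 96.9 to 47.2 and 45.5 CPM in siControl and from 97.1 and 97.8 to 62.7 and 65.2 CPM in siIGF2BP2. The groups were nearly level at 0 h and apart at 6 h, a shift of 0.44 ± 0.07 SE (edgeR quasi-likelihood adjusted p = 2.2e-04).

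SIAH2, an E3 ubiquitin ligase, ended at 7.19 and 7.06 CPM in siControl and 9.66 and 9.93 CPM in siIGF2BP2, from 79.0 and 78.2 CPM and 79.6 and 78.6 CPM at 0 h, a shift of 0.45 ± 0.09 SE (edgeR quasi-likelihood adjusted p = 0.0086). YOD1, a deubiquitinase, had a shift of 0.81 ± 0.15 SE (edgeR quasi-likelihood adjusted p = 0.0036) but was also lower at 0 h (-0.61, adjusted p = 3.0e-06), so that its 6 h levels of 4.07 and 5.25 CPM in siControl and 5.46 and 5.20 CPM in siIGF2BP2 overlapped. SQLE, the squalene epoxidase of cholesterol synthesis, kept 72.7 and 74.1 CPM in siIGF2BP2 against 57.6 and 53.5 CPM in siControl, a shift of 0.33 ± 0.06 SE (edgeR quasi-likelihood adjusted p = 0.0043). The other 36 of 37 tested genes of cholesterol and fatty acid synthesis did not pass the test, and the list had a median of -0.04.

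Some of the larger positive shifts came with a higher level before actinomycin D. SMIM15, which encodes a small membrane protein, was at 15.1 and 16.0 CPM at 0 h, 6.63 and 7.44 CPM at 3 h and 3.67 and 3.11 CPM at 6 h in siControl and 33.6 and 32.7 CPM at 0 h, 22.7 and 23.2 CPM at 3 h and 12.5 and 11.2 CPM at 6 h in siIGF2BP2. The siIGF2BP2 libraries were above the siControl libraries of the same time throughout, and the shift was 0.70 ± 0.13 SE (edgeR quasi-likelihood adjusted p = 0.0042). TDRD7, a tudor domain protein that interferon can induce, was at 13.1 and 11.9 CPM at 0 h and 3.57 and 5.00 CPM at 6 h in siControl, and at 19.8 and 18.7 and then 14.3 and 11.9 CPM in siIGF2BP2, a shift of 0.99 ± 0.17 SE (edgeR quasi-likelihood adjusted p = 0.0016). It was the 1 call among 42 tested interferon response genes. CFDP1 did not fall relative to the typical gene in either group. It rose from 25 and 26.8 CPM to 37.3 and 37.8 CPM in siControl and from 68.2 and 70.3 CPM to 129.6 and 127 CPM in siIGF2BP2, a shift of 0.35 ± 0.07 SE (edgeR quasi-likelihood adjusted p = 0.011). For SMIM15, TDRD7 and CFDP1 the difference from the shift of siIGF2BP1 cells was -0.12 ± 0.12, -0.20 ± 0.16 and 0.03 ± 0.07 (SE), none of them called.

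TMEM169 had the largest positive shift, 1.38 ± 0.31 SE (edgeR quasi-likelihood adjusted p = 0.026), at low levels: from 5.61 and 6.16 CPM at 0 h it fell to 0.590 and 0.778 CPM at 6 h in siControl and from 5.64 and 5.89 to 1.40 and 2.03 CPM in siIGF2BP2. Its groups did not overlap at 6 h. Further large shifts were those of THAP9-AS1 (1.03), CAMSAP2 (0.69), which caps microtubule minus ends, ABTB2 (0.63), GPBP1 (0.47) and USP6NL (0.46), a GTPase-activating protein for Rab proteins, with adjusted p-values of 0.028, 0.016, 0.043, 0.028 and 0.014 by edgeR's quasi-likelihood test. THAP9-AS1 lies antisense to another gene and the strand setting of the counting was not given in the sources used here, so its value is uncertain. Other genes called in this direction were CKS2 (0.44), a subunit of cyclin-dependent kinases and the 1 call among 107 cell cycle and replication genes, SIN3A (0.42), the scaffold of a histone deacetylase complex, AMD1 (0.32), which makes the precursor of polyamines, WAC (0.43), RAB11FIP1 (0.41), CCDC59 (0.44), ZBED4 (0.37), KANSL3 (0.25) and IST1 (0.29). Over the 26 genes the shifts ran from 0.25 to 1.38, and 24 of 26 were also called higher in siIGF2BP2 at 6 h, where 8.25% of all genes were. At 0 h 6 of the 26 were called higher and 4 lower, against 6.65% and 5.47% of all genes.

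**Figure D2:**
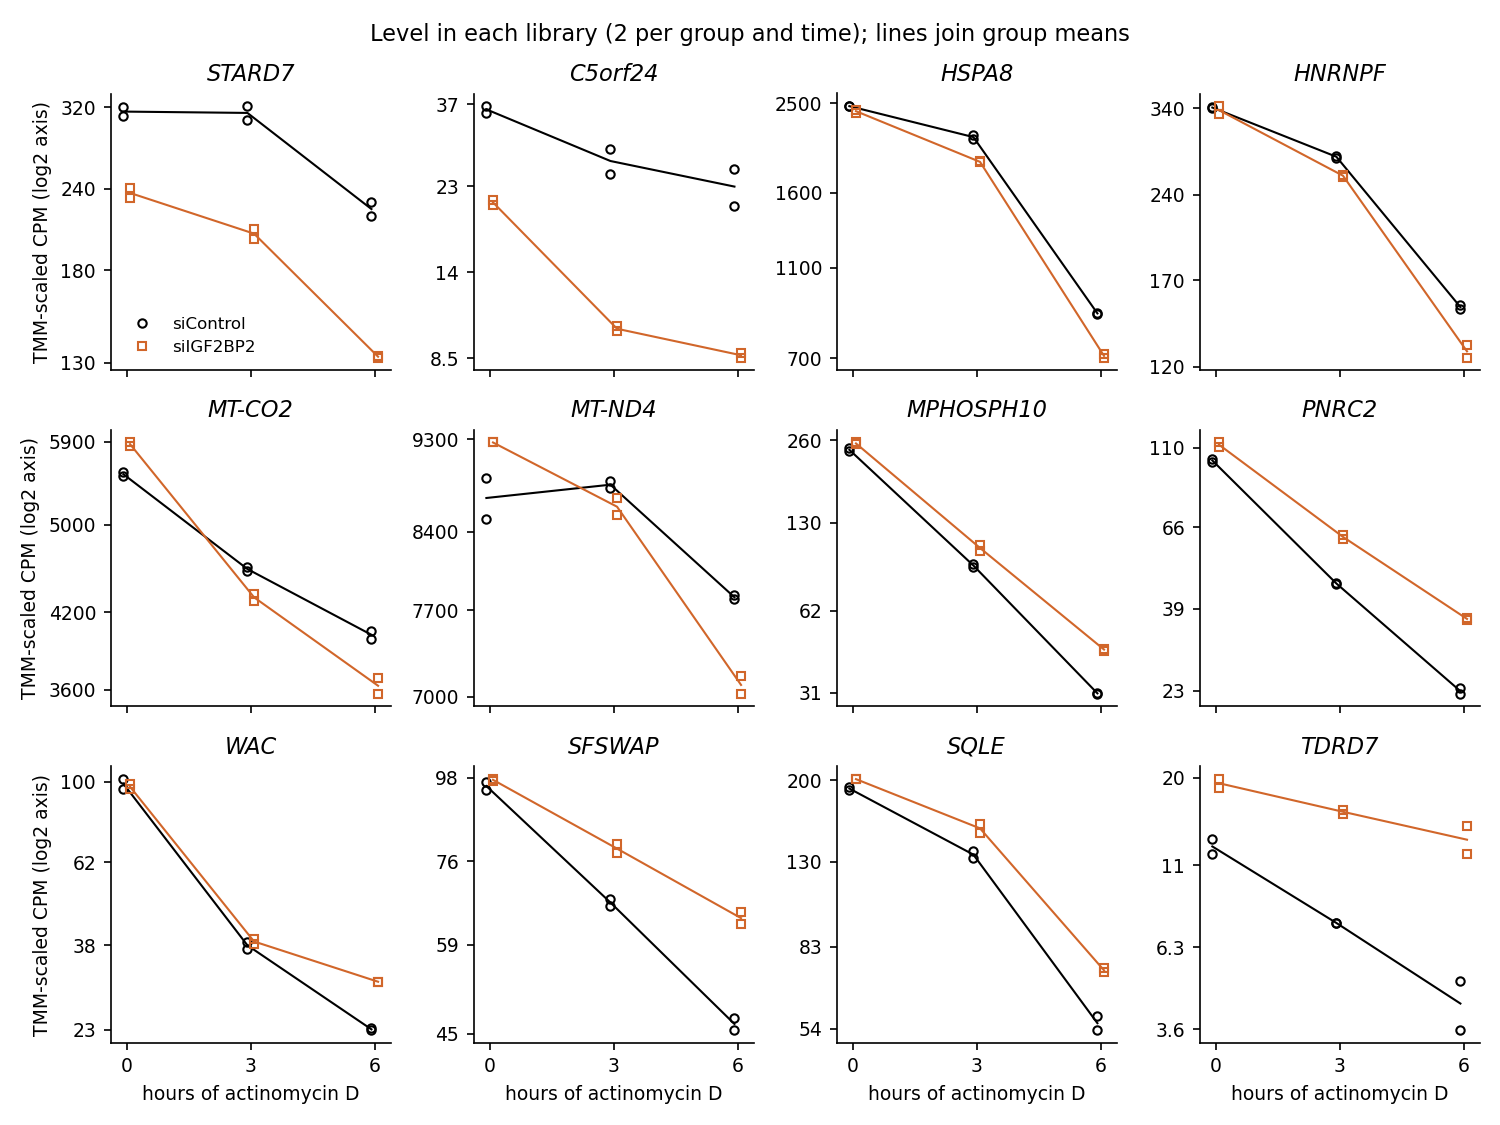
TMM-scaled CPM (log2 axis, each panel with its own range) against hours of actinomycin D for 12 called genes, with each of the 2 replicate libraries as a point (black circles siControl, orange squares siIGF2BP2) and lines through the group means. MPHOSPH10, PNRC2, WAC, SFSWAP, SQLE and TDRD7 end higher in siIGF2BP2, while STARD7, C5orf24, HSPA8, HNRNPF, MT-CO2 and MT-ND4 end lower.

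Most mitochondrially encoded mRNAs were lost more, relative to the typical gene. These 13 transcripts are made inside mitochondria and encode core subunits of the respiratory chain and ATP synthase. Of 13 tested, 7 were called with more loss (MT-CYB, MT-ND2, MT-CO2, MT-ATP6, MT-ND4, MT-ND5 and MT-CO1) and 1, MT-ATP8, with less, where 0.274% and 0.198% of all genes were called. The members were measured in the same libraries and are not independent of each other. With each library left out in turn, MT-CYB, MT-ATP6, MT-ND5 and MT-CO1 did not always keep their call, though their shifts stayed negative. The median shift of the 13 was -0.23, against -0.02 over all genes, and it was -0.15 in replicate 1 alone, -0.22 in replicate 2 alone and -0.20 on the ERCC scale relative to all genes. Before that centring the ERCC shifts of the 7 genes ran from -0.08 to 0.05, with MT-ND5 and MT-CO1 on the positive side and none called. The 5 uncalled members, MT-ND3, MT-ND6, MT-CO3, MT-ND4L and MT-ND1, had values of -0.23 to -0.11, each at an unadjusted p under 0.05. Of the 13, 7 were also called higher at 0 h, and since the 0 h level enters the shift with the opposite sign, the start and the shift of a gene are not independent.

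MT-CO2, a subunit of cytochrome c oxidase, was at 5554 and 5504 CPM at 0 h, 4598 and 4557 CPM at 3 h and 3981 and 4049 CPM at 6 h in siControl. In siIGF2BP2 it started higher and ended lower, at 5890.4 and 5851 CPM at 0 h, 4294 and 4358 CPM at 3 h and 3569 and 3686 CPM at 6 h, with no overlap at any time. The shift was -0.23 ± 0.03 SE (edgeR quasi-likelihood adjusted p = 4.3e-05). MT-ND4, a complex I subunit, went from 8914 and 8518 to 7794 and 7831 CPM in siControl and from 9267 and 9266 to 7023 and 7163 CPM in siIGF2BP2, a shift of -0.23 ± 0.03 SE (edgeR quasi-likelihood adjusted p = 4.3e-05). MT-CYB, the cytochrome b of complex III, fell far in both groups, from 2724 and 2740.1 to 366 and 367 CPM and from 2854 and 2659.8 to 302 and 309 CPM, a shift of -0.28 ± 0.05 SE (edgeR quasi-likelihood adjusted p = 0.0036). The crossing seen for MT-CO2 held for the median of the 12 members other than MT-ATP8. Their median difference from siControl was 0.09 at 0 h, -0.04 at 3 h and -0.11 at 6 h.

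MT-ATP8 was the exception to this direction, and it overlaps MT-ATP6, so that its counts depend on how shared reads were assigned. It was at 808 and 806 CPM at 0 h, 667 and 652 CPM at 3 h and 409.5 and 426 CPM at 6 h in siControl and at 309.5 and 307 CPM at 0 h, 641 and 450.4 CPM at 3 h and 376 and 392 CPM at 6 h in siIGF2BP2. The 0 h libraries of siIGF2BP2 were lower than all others, and the shift was 1.27 ± 0.29 SE (edgeR quasi-likelihood adjusted p = 0.028), while the difference from siControl was -1.39 at 0 h and -0.12 at 6 h. Against siControl, the 7 genes lost more had shifts of -0.19 to 0.02 in siIGF2BP1 cells and -0.22 to -0.09 in siIGF2BP3 cells, comparisons that share the siControl libraries. Tested directly, 5 of the 13 differed between siIGF2BP2 and siIGF2BP1 (MT-ND2, MT-CO2, MT-ATP6, MT-ND4 and MT-ND5, all with more loss in siIGF2BP2), and MT-ATP8 alone differed from siIGF2BP3. Of 76 nuclear-encoded respiratory chain subunits and 78 mitochondrial ribosomal proteins tested, which work with these transcripts' products, none was called, with medians of -0.04 and -0.05, and 4 and 7 genes at an unadjusted p under 0.05.

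**Figure D3:**
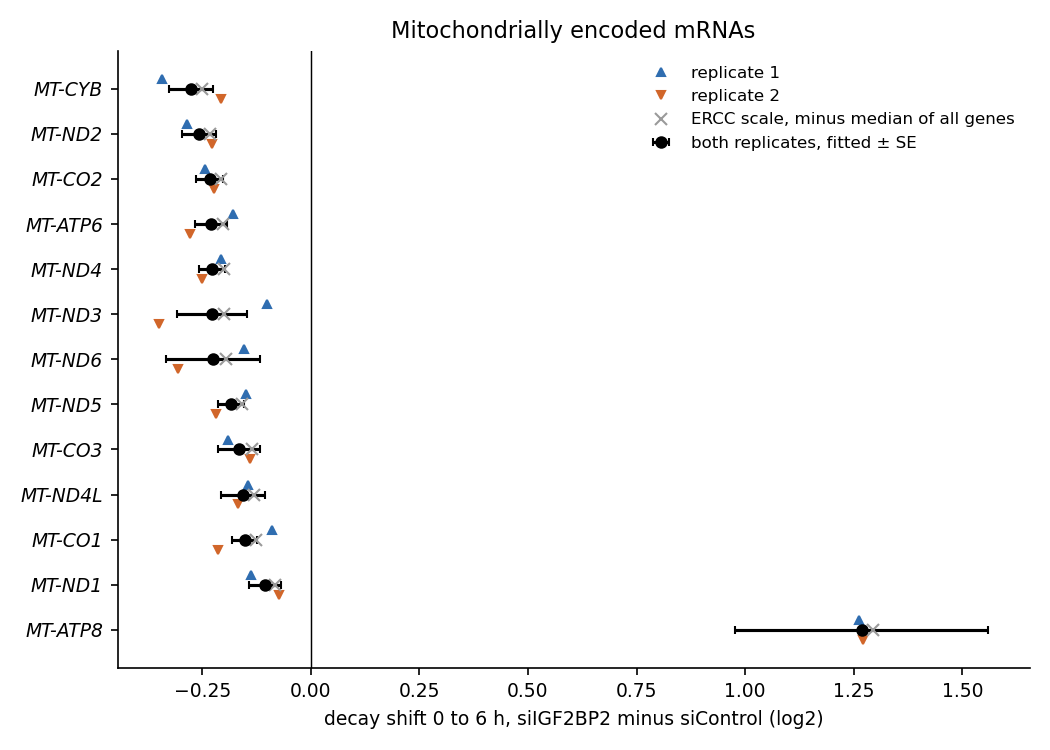
Decay shift from 0 to 6 h (log2, x axis) of the 13 mitochondrially encoded mRNAs: the fitted value with its SE (black), replicate 1 alone (blue), replicate 2 alone (orange) and the ERCC-scale value minus the median of all genes (grey crosses). The fitted values of all but MT-ATP8 lie between -0.28 and -0.11.

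Among the nuclear transcripts lost more, STARD7, a phosphatidylcholine transfer protein of mitochondria, had the smallest p. It was at 311 and 319.8 CPM at 0 h, 321 and 306 CPM at 3 h and 218 and 229 CPM at 6 h in siControl and at 240.4 and 233 CPM at 0 h, 209 and 201 CPM at 3 h and 132 and 133 CPM at 6 h in siIGF2BP2. The siIGF2BP2 libraries were lower at each time, already before actinomycin D (-0.41), and the gap widened to -0.75 at 6 h, a shift of -0.34 ± 0.05 SE (edgeR quasi-likelihood adjusted p = 1.5e-04). C5orf24 was at 36.6 and 35.2 CPM at 0 h, 28.6 and 24.7 CPM at 3 h and 20.5 and 25.4 CPM at 6 h in siControl and 20.6 and 21.3 CPM at 0 h, 9.94 and 10.2 CPM at 3 h and 8.77 and 8.54 CPM at 6 h in siIGF2BP2. Its shift was -0.63 ± 0.12 SE (edgeR quasi-likelihood adjusted p = 0.0042), of which -0.62 fell in the first 3 h. RAB21, a small GTPase of endosomes, fell from 48.7 and 48.2 to 33.5 and 34.7 CPM in siControl and from 32.2 and 34.8 to 18.0 and 17.1 CPM in siIGF2BP2, a shift of -0.43 ± 0.09 SE (edgeR quasi-likelihood adjusted p = 0.015). TRIAP1, an inhibitor of apoptosis, went from 55.2 and 55.1 to 45.8 and 46.1 CPM and from 41.7 and 42.3 to 25.5 and 27.5 CPM, a shift of -0.40 ± 0.09 SE (edgeR quasi-likelihood adjusted p = 0.022). SLC20A1, a sodium-dependent phosphate transporter, had -0.37 ± 0.07 SE (edgeR quasi-likelihood adjusted p = 0.0055). It was the 1 called of 219 solute carriers tested, whose median was -0.06.

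Several other transcripts lost more were not called different from siControl at 0 h. HSPA8, the constitutive HSP70 chaperone and the 1 call among 55 tested heat shock proteins, was at 2464 and 2465 CPM at 0 h and 879.5 and 873 CPM at 6 h in siControl. In siIGF2BP2 it was at 2423 and 2384 and then 715 and 703 CPM, below both siControl libraries at 6 h, a shift of -0.27 ± 0.05 SE (edgeR quasi-likelihood adjusted p = 0.0017). HNRNPF, a splicing regulator and the 1 call among 36 tested SR and hnRNP splicing factors, fell from 339.8 and 342 to 151 and 154 CPM in siControl and from 343 and 332 to 125 and 131 CPM in siIGF2BP2, a shift of -0.24 ± 0.05 SE (edgeR quasi-likelihood adjusted p = 0.0071). COX18, which inserts a cytochrome c oxidase subunit into the inner membrane, rose relative to the typical gene in siControl, from 19.7 and 18.9 to 26.3 and 26.7 CPM, but not in siIGF2BP2, from 22.4 and 22 to 21.5 and 20.8 CPM. The siIGF2BP2 libraries were above siControl at 0 h, which did not pass the test (0.20, edgeR quasi-likelihood adjusted p = 0.054), and below it at 6 h, a shift of -0.53 ± 0.10 SE (edgeR quasi-likelihood adjusted p = 0.0045). RDH10, a retinol dehydrogenase (-0.42), MPLKIP (-0.37), SF3B4, a U2 snRNP splicing protein (-0.29), and G6PC3, a glucose-6-phosphatase (-0.28), were likewise not called different at 0 h. By contrast, HIF1A, the hypoxia-inducible transcription factor (-0.25), was called higher there and RBMX, an RNA-binding protein of splicing (-0.25), slightly lower.

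The largest values in this direction were those of SMN1 (-2.34 ± 0.53) and GUSBP14 (-2.59 ± 0.54), a pseudogene. SMN1 has a near-identical copy, SMN2, and its siControl libraries alone ranged from 1.91 to 12.3 CPM, so its value is uncertain. C2orf69 (-0.67), NUDCD1 (-0.49), DGCR2 (-0.43) and UHMK1 (-0.35), a kinase of splicing factors, were also among the largest. In smaller steps, RDX (-0.30), which links actin to the membrane, AKT1S1 (-0.34), a regulator of mTORC1, SELENOI (-0.26), a selenoprotein of phospholipid synthesis, SCRN1 (-0.31), SNHG16 (-0.31), the 1 call among 23 tested snoRNA host genes, MTDH (-0.21) and DAP (-0.21) were also called. MTATP6P1, a nuclear copy of mitochondrial sequence (-0.24), moved with its source genes and cannot be told apart from them. Without siControl 0 h replicate 2, 44 of the 62 genes lost their call. 13 genes kept it whichever of the 12 libraries was left out, among them HSPA8, MPHOSPH10, MT-CO2, MT-ND2, MT-ND4, PNRC2, SFSWAP, SMIM15, SQLE, STARD7, TDRD7 and WAC.

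The nuclear transcripts lost more were mostly low in siIGF2BP2 before actinomycin D. Of these 28 genes, IGF2BP2 itself included, 18 were called lower at 0 h, where 5.47% of all genes were, and 3 were called higher. At 6 h 26 of 28 were called lower, against 10.4% of all genes. The 0 h difference enters the shift with the opposite sign, so the start and the shift of a gene are not independent. The median difference of the 28 genes from siControl went from -0.31 at 0 h to -0.53 at 3 h and -0.63 at 6 h.

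A short word in their 3′ untranslated regions (3′ UTRs) was shared by many of these genes. The word GAGATTA, read on the transcript strand only, was picked after the values were seen, as the 1 of 16384 words of 7 bases whose share rose most in coding genes lower at 0 h by 0.3 or more on the log2 scale (132 of 293, 45.1%) over all tested coding genes (1202 of 11385, 10.6%). Words that overlap it came next, AGATTAA with 37.5% against 13.7% and AGAGATT with 38.6% against 15.9%. Among the 26 protein-coding nuclear genes lost more, 13 held it, and among the 25 coding genes lost less, 3 did. Since 18 of the 28 nuclear genes lost more were also called lower at 0 h, this share is not independent of the choice of the word. The following sites, from canonical transcripts on hg38 and written 5′ to 3′ with the word in capitals, are examples from 7 of these 13 genes, picked by hand to show the word with its surroundings:
C5orf24, chr5:134857203-134857231, plus strand: taaatgcctttGAGATTAaaatgtagaat
DAP, chr5:10680683-10680711, minus strand: tttgagaagatGAGATTAaggttaggaga
DGCR2, chr22:19037678-19037706, minus strand: tctgaggtttgGAGATTAagcgggttctg
RAB21, chr12:71787332-71787360, plus strand: cacagattgtaGAGATTAacataaattgt
RDX, chr11:110229630-110229658, minus strand: tggatttcttaGAGATTAaaccaattata
SELENOI, chr2:26390948-26390976, plus strand: tacacaagaatGAGATTAatctgtattat
TRIAP1, chr12:120444621-120444649, minus strand: acaatttttttGAGATTAtggttgcaata

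All 7 lie in exonic 3′ UTR sequence, and RAB21 holds the word at 3 places and RDX at 2, of which 1 each is shown. Most sites shown have an A after the word, and sites not shown, as in MPLKIP, include others with C, G or T there. With each library left out in turn, these 7 genes did not always keep their call of more loss, though their shifts stayed negative (-0.78 to -0.17). Among all tested coding genes with the word, 231 of 1202 (19.2%) were called lower at 0 h, and of those without it 454 of 10183 (4.46%). For the decay shift 13 of 1202 genes with the word (1.08%) and 20 of 10183 without it (0.196%) were called with more loss. Of the 20, 7 are mitochondrially encoded, and among nuclear genes without the word the count was 13 of 10170 (0.128%). Genes with and without the word were not matched for 3′ UTR length, and a longer 3′ UTR has more places for any word. From the shortest to the longest of 4 equal groups by that length, 109, 143, 198 and 235 genes were called lower at 0 h. With more loss there were 10, 7, 8 and 8. These counts include the 7 mitochondrially encoded genes, and nuclear genes alone were not counted by length. The median shift did not differ to 2 decimals with the number of copies: it was -0.03 with no copy, -0.03 with 1 and -0.03 with 2 or more, while the median difference at 0 h was 0.02, -0.03 and -0.06. Set against siIGF2BP1 at 0 h, a comparison that uses the same siIGF2BP2 libraries on which the word was chosen, the latter medians were 0.01, -0.04 and -0.06, and against siIGF2BP3 0.01, -0.04 and -0.09. The 132 genes low at 0 h that hold the word were lower still at 3 h (median -0.44 at 0 h, -0.54 at 3 h and -0.49 at 6 h), and the 161 without it were level (-0.41, -0.42 and -0.41). Whether the word takes part in these changes was not tested, and the sequences of the siRNAs are not given in the sources used here.

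**Figure D4:**
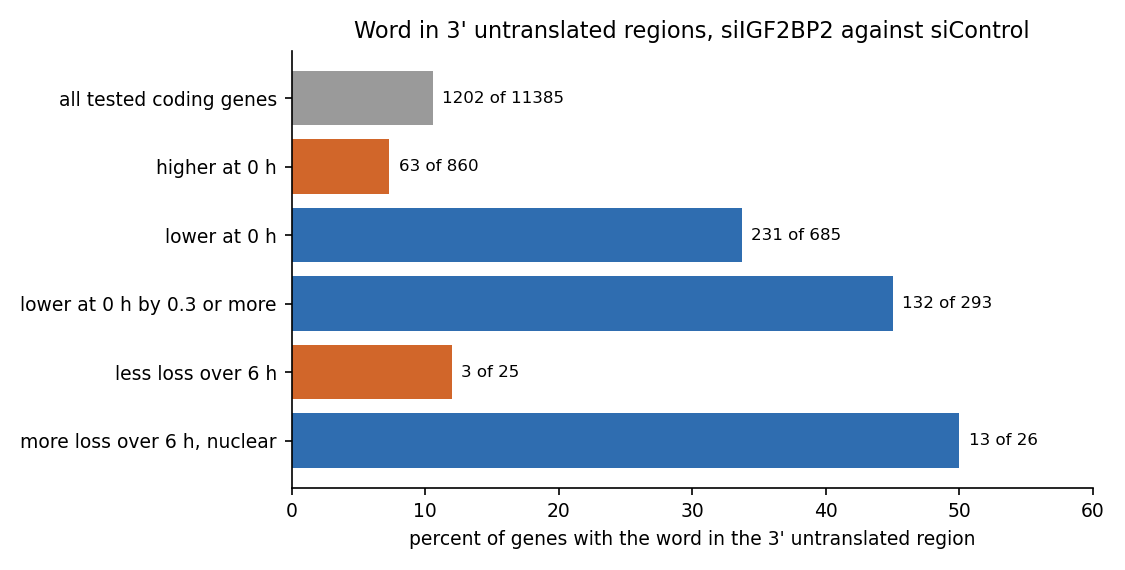
Percent of protein-coding genes whose 3′ UTR holds the 7-base word (x axis), in all tested genes and in genes called in siIGF2BP2 against siControl at 0 h or for the loss over 6 h, with the counts beside each bar. The share is 45.1% in genes lower at 0 h by 0.3 or more and 13 of 26 in nuclear genes lost more, against 10.6% in all genes. The word was chosen on the 0 h list.

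On the TMM scale more genes were called early than late. The order was the reverse on the ERCC scale, with 6 from 0 to 3 h and 25 from 3 to 6 h. From 0 to 3 h, 10 genes (0.0761%) were called, 6 with less loss (0.0457%) and 4 with more (0.0305%), a split of 21 to 2 with library-size scaling, 20 to 7 with DESeq2, 10 to 3 with a minimum of 5 CPM and 3 to 3 on the ERCC scale. From 3 to 6 h none was, although 709 genes had an unadjusted p under 0.05, 5 were called by DESeq2 and 25 on the ERCC scale, and 1 and 9 were called without siControl 6 h replicate 1 or 2. All but 1 of the 26 and all but 1 of the 36 genes called over 6 h had the same sign in both intervals, IGF2BP2 being the exception among the 36. Of the 6 with less early loss, SMIM15, DDIT4, PIK3R1 and DNAJB1 are described. DDIT4, an inhibitor of mTORC1, was at 0.580 and 0.914 CPM in siControl and 1.71 and 1.79 CPM in siIGF2BP2 at 3 h (1.09 ± 0.22, adjusted p = 0.035 by edgeR's quasi-likelihood test). PIK3R1, the regulatory subunit of PI3K (0.56), and DNAJB1, an HSP40 co-chaperone (0.57), had values of -0.32 and -0.04 from 3 to 6 h. C5orf24, IGF2BP2, SNHG16 and MT-CO2 were the 4 with more early loss. The count from 0 to 3 h was 1 without siControl 0 h replicate 1, siIGF2BP2 0 h replicate 1 or 2, or siIGF2BP2 3 h replicate 1. It was 2 without siIGF2BP2 3 h replicate 2, 3 without siControl 0 h replicate 2 or 3 h replicate 1, and 18 without siControl 6 h replicate 2. By a line fitted through all 3 times, 2 genes were called over 6 h.

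Most gene lists of the tissue and of RNA biology held few calls or none. Of 47 tested immediate early and feedback genes, such as JUN, IER2 and ID1, none was called on the TMM scale and 3 with less loss on the ERCC scale. At an unadjusted p under 0.05, 8 of the 47 (17.0%) had less loss, where 433 of 13136 genes (3.30%) had, and 1 had more. In all, 28 of 47 values were positive, against 42.8% over all genes, and they ran from -2.02 to 1.32. These transcripts are short-lived, with a median change of -3.64 in siControl. In the fastest decay group above, 57.1% of values were positive and 7.25% of genes had less loss at that unadjusted p. The median of the 47 was 0.06 over 6 h (fastest group 0.04). It was 0.22 in the first 3 h (all genes -0.02, fastest group 0.06) and -0.14 in the last 3 h. Of members picked after their values were seen, JUN was 0.52 ± 0.14, IER2 0.43 ± 0.15 and ID3, an inhibitor of basic helix-loop-helix factors, 0.67 ± 0.21 (SE), while the 1 with more loss, the kinase gene PIM3, was -0.455 ± 0.21 (SE). The 28 hepatocyte transcription factors, a short-lived class with a median change of -1.91 in siControl, had a median shift of 0.09 (0.09 and 0.09 in the replicates) and no call. PROX1 was 0.17 ± 0.06, HNF4A 0.07 ± 0.05 and NR0B2, a bile acid-responsive repressor, -0.77 ± 0.30. C2H2 zinc finger genes, with 399 tested and a median change of -1.62 in siControl, had a median shift of 0.06 and no call. The fastest decay group had a median shift of 0.04.

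Long-lived housekeeping classes lay near or just below the median of all genes. The 85 cytosolic ribosomal protein genes had a median of -0.04, 37 proteasome subunits -0.06, 40 plasma proteins of coagulation and complement -0.04 and 21 selenoproteins -0.08, with SELENOI the 1 call. None of 62 listed genes of the decay machinery was called, at a median of -0.01. PNRC2, called with less loss above, is not on that list. Values on it ran from -0.43 to 0.29, with 29 of 62 positive. XRN1, the cytoplasmic 5′ to 3′ exonuclease and a member picked by its value, was 0.29 ± 0.10 (SE). Of 27 writers, readers and erasers of m6A and m7G, IGF2BP2 was the 1 call. Of the transcripts that the study tested as m7G targets, 5 are given here and none of them was called, at 0.03 for CYRIB, 0.04 for HUWE1, -0.07 for BPNT2, -0.10 for NDRG1 and -0.03 for ZDHHC9, with SEs of 0.04 to 0.15 and adjusted p-values of 0.81 to 0.95 by edgeR's quasi-likelihood test. The longer half-lives that the study reports for m7G transcripts are those after IGF2BP1 and IGF2BP3 knockdown. Of 8 tested transcripts known as clients of IGF2BP2 none was called, with 4 values on either side of 0, a median of -0.02 and a range of -0.19 to 0.13. Among them were IGF2 at -0.19 ± 0.06, HMGA1 at -0.13 ± 0.04, NRAS at -0.12 ± 0.06 and LAMB2 at 0.09 ± 0.06 (SE).

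**Figure D5:**
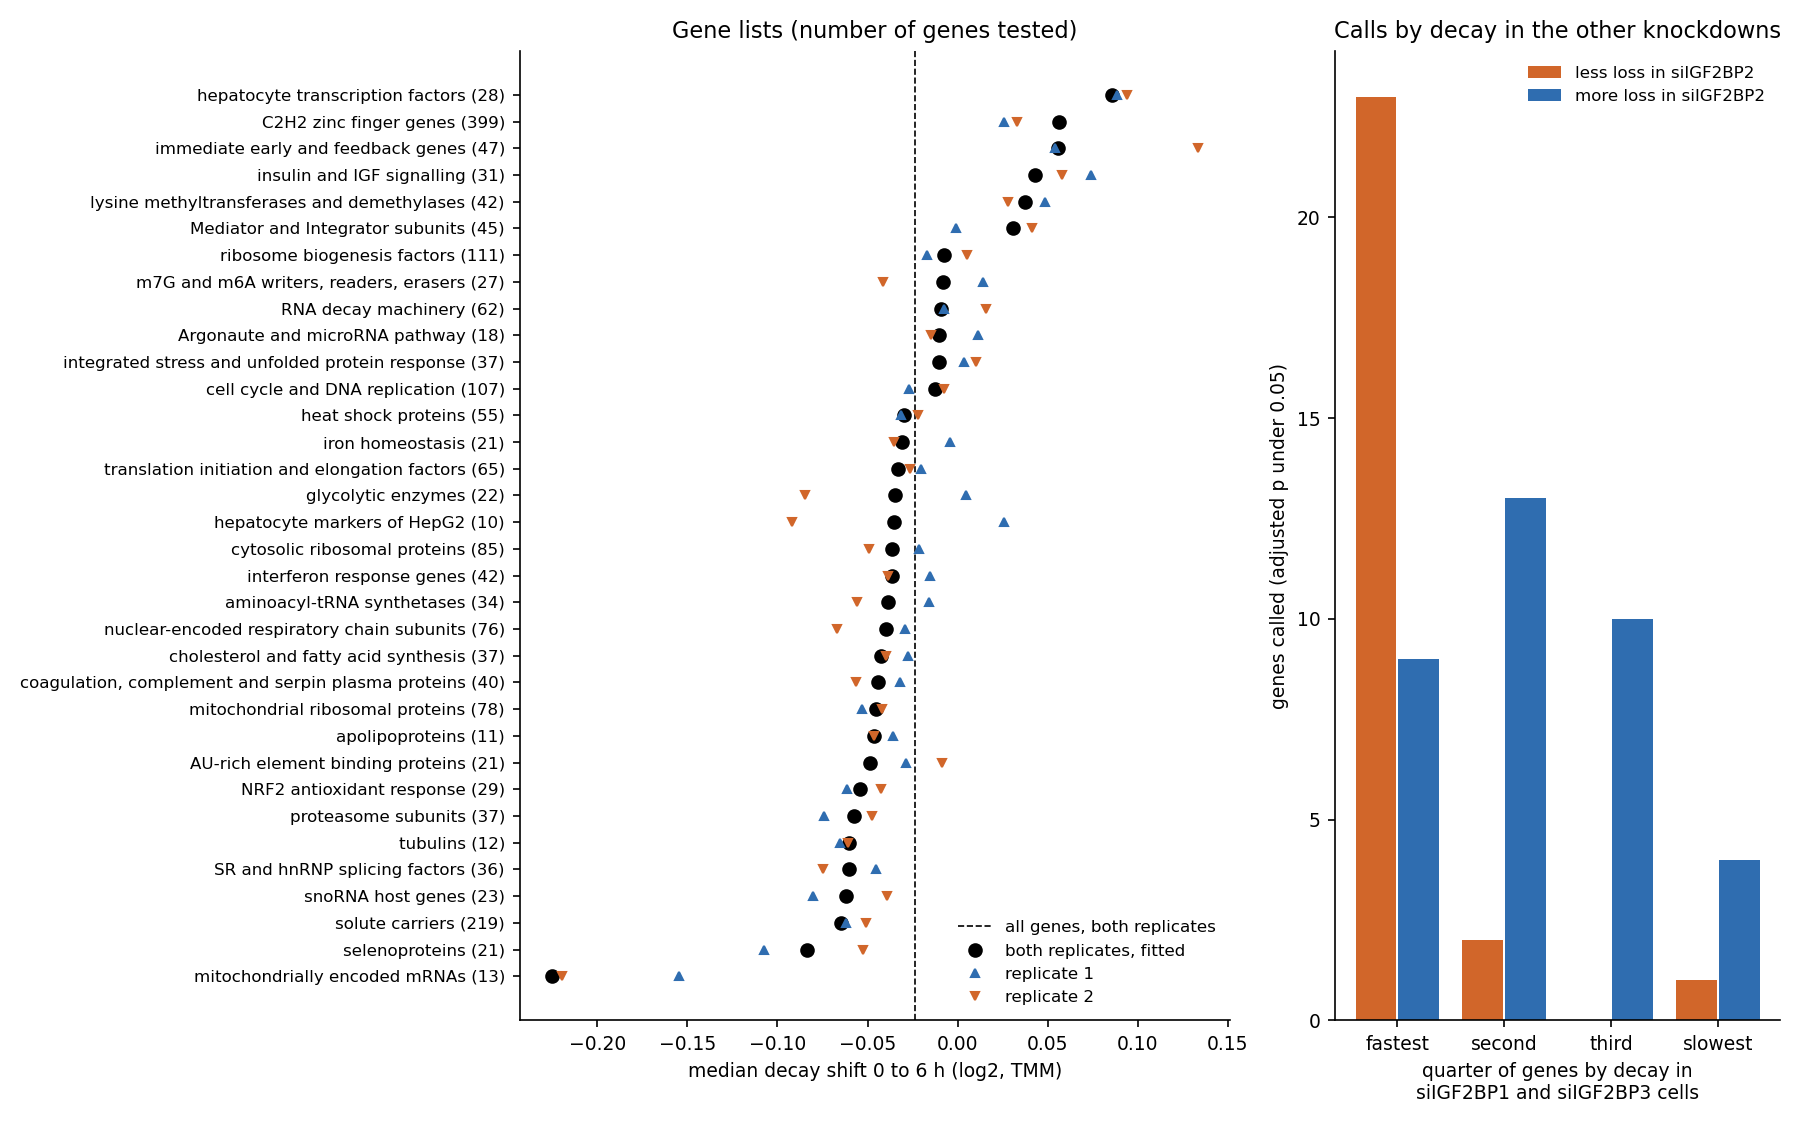
Left, median decay shift from 0 to 6 h (log2) of gene lists with at least 10 genes tested, fitted (black) and in each replicate alone (blue, orange), with the median of all genes as a dashed line. Right, number of genes called with less loss (orange) or more loss (blue) in each of 4 equal groups of genes by their decay in siIGF2BP1 and siIGF2BP3 cells. The fastest group holds 23 of the 26 genes lost less.

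Median shifts differed little with the structure of the transcript. Coding genes were divided into 4 equal groups by coding length, and the median shift was -0.05 in the shortest and 0.00 in the longest. From the shortest to the longest group, 5, 7, 4 and 9 genes were called with less loss and 9, 14, 9 and 1 with more, of 25 and 33 among all 11385 coding genes. The 33 include the 7 mitochondrially encoded genes lost more. By 3′ UTR length the medians ran from -0.04 to -0.02. An AU-rich element in the 3′ UTR, searched on the transcript strand as TATTTAT, gave -0.03 with none and -0.02 with 2 or more, and the Pumilio element, searched as TGTANATA, -0.03 and 0.00. The letters of the m6A consensus searched as GGACT gave -0.03 with none and -0.02 with 3 or more. These elements were held by 35.2%, 29.8% and 62.2% of the 11385 coding genes. The 596 pseudogenes had a median of 0.09, but it was 0.15 in replicate 1 and 0.03 in replicate 2.

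The shift after IGF2BP2 knockdown was then set against those after the other knockdowns. Against siIGF2BP1, 119 genes (0.906%) differed, 61 with less loss in siIGF2BP2 (0.464%) and 58 with more (0.442%), a split of 86 to 35 with library-size scaling, 130 to 71 with DESeq2, 94 to 44 with a minimum of 5 CPM, 88 to 50 with no filter and 8 to 5 on the ERCC scale. It leaned the other way, to more loss, with only the 12 libraries compared (113 to 158) and with a replicate block within each condition (97 to 120). Against siIGF2BP3, 32 (0.244%) differed, 11 with less loss (0.0837%) and 21 with more (0.160%), a split of 16 to 18 with library-size scaling, 33 to 27 with DESeq2, 20 to 13 with a minimum of 5 CPM, 20 to 20 with no filter, 1 to 1 on the ERCC scale, 11 to 8 with only the 12 libraries compared and 25 to 61 with a replicate block within each condition. Against siIGF2BP1 the count was 70, 68, 75 and 57 without siIGF2BP1 0 h replicate 1, 0 h replicate 2, 6 h replicate 1 and 6 h replicate 2, and 59, 57 and 58 without siIGF2BP2 0 h replicate 1, 0 h replicate 2 and 6 h replicate 1. Against siIGF2BP3 it was 16, 8, 13 and 12 without siIGF2BP2 0 h replicate 1, 0 h replicate 2, 6 h replicate 1 and 6 h replicate 2, and 15 without either siIGF2BP3 0 h replicate.

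Of the 36 genes lost more against siControl, 17 were also called with more loss against siIGF2BP1 and 9 against siIGF2BP3, with 8 in both, and of the 26 genes lost less, 8, 2 and 1. All these comparisons share the siIGF2BP2 libraries. In all, 14 genes differed from both other knockdowns, 12 with more loss and 2 with less, and 9 of the 14 were also called against siControl (AKT1S1, HNRNPF, RAB21, RBMX, RDX, SLC20A1, STARD7, TRIAP1 and ZBED4). STARD7 was -0.39 ± 0.05 against siIGF2BP1 and -0.37 ± 0.05 against siIGF2BP3 (SE, edgeR quasi-likelihood test, adjusted p = 4.2e-06 and 3.7e-05). HNRNPF was -0.41 and -0.33. NEAT1, the lncRNA of paraspeckles, differed from both other knockdowns (-0.56 and -0.42) but was -0.18 against siControl, which did not pass the test. BUB3, a spindle checkpoint protein, GMPS, an enzyme of GMP synthesis, SERP1, which stabilises membrane proteins, and B4GALT5, a galactosyltransferase, likewise differed from both knockdowns and did not pass the test against siControl. The targets themselves crossed in this comparison: IGF2BP1 mRNA was 0.46 ± 0.04 against siIGF2BP1 and IGF2BP3 mRNA 0.50 ± 0.07 against siIGF2BP3 (SE, adjusted p = 2.0e-08 and 2.9e-05 by edgeR's quasi-likelihood test), so each siRNA target was lost more in the cells in which it was knocked down.

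Far more genes were called for their level than for their decay. The shift combines the differences at both times and is measured less precisely, so the counts do not compare the size of the effects. At 0 h, 1593 genes (12.1%) differed between siIGF2BP2 and siControl, 874 higher (6.65%) and 719 lower (5.47%), or 563 and 169 on the ERCC scale and 567 and 701 with no filter. At 6 h, 2453 genes (18.7%) differed, 1084 higher (8.25%) and 1369 lower (10.4%), a split that was 1543 to 979 with library-size scaling and 6336 to 157 on the ERCC scale, whose median of all genes at 6 h was 0.27. Without 1 of the 0 h libraries the count at 0 h was 823 (siIGF2BP2 replicate 1), 966 (siIGF2BP2 replicate 2), 856 (siControl replicate 1) or 987 (siControl replicate 2). At 6 h it was 1540 without siIGF2BP2 6 h replicate 1, the lowest over the 12 libraries.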

How the data were processed

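After 0, 3 and 6 h of actinomycin D, ERCC spike-in RNA was added to total RNA from HepG2 cells, from which mRNA was isolated and sequenced. The deposited values are raw read counts per gene and library, made by the authors from reads aligned to hg38. The submitters' processing notes name Trimmomatic 0.39 and HISAT2 2.1.0; the settings of the counting are not given in the sources used here. Each table held 58721 gene rows, 92 ERCC rows and 5 summary rows, the last with 13.6 to 16.8% of reads in the 12 libraries, and the ERCC and summary rows stayed out of library sizes. 45 copies on the Y pseudoautosomal regions were left out, and 58207 genes matched a symbol in the reference annotation, which is a later release than that of the files.

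Genes with at least 1 CPM in at least 2 of 24 libraries (13136) were fitted in edgeR 4.0.16 (R 4.3.3, limma 3.58.1) by the quasi-likelihood test, with TMM factors, 12 group means and Benjamini-Hochberg adjustment over all tested genes at 0.05. The test is two-sided. Values for a single replicate are log2 ratios of CPM with 0.5 added. The ERCC scale divides by the sum of ERCC reads. DESeq2 1.42.0, other filters, scalings and replicate blocks, and the removal of each library were the alternatives. The fit was tested on simulated counts. Named genes were IGF2BP2 and its paralogues, the 12 called genes with the largest shift in each direction at a mean of 5 CPM or more, called members of the lists, and others added after their values were seen. Members and lists were chosen with earlier results of these data known. 3′ UTR sequences came from canonical transcripts of the reference (hg38). Some items are not reported here. Figures were drawn with matplotlib 3.10.9.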

Additional observations from a re-analysis of the deposited data

Results flagged for a closer look

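The change from 0 to 6 h differed between siIGF2BP2 and siControl by edgeR's quasi-likelihood test of the difference itself for 62 genes, described above. The same test between siIGF2BP2 and siIGF2BP1 called 119 genes. The lowest values there were those of GUSBP14 (-2.43), C2orf69 (-0.99), RAB9A (-0.96), PAPOLG (-0.79) and NUFIP1 (-0.69). The highest were those of NPTN-IT1 (4.30), MFAP3L (1.597), SDHAF1 (1.33), NXT1 (1.08) and ID3 (0.99). Between siIGF2BP2 and siIGF2BP3 it called 32 genes, from TRIAP1 (-0.50), NEAT1 (-0.42), RAB21 (-0.41), BUB3 (-0.39) and ATXN7L3B (-0.38) to NUDT18 (2.04), MT-ATP8 (1.48), ANKRD1 (1.18), DNAJB9 (0.84) and SEMA7A (0.58). All are log2 differences of the 0 to 6 h change on the TMM scale. GUSBP14, NPTN-IT1, MFAP3L and NUDT18 had mean levels of at most 2.12 CPM.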

How the results depend on the processing

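The call at 0 to 6 h rested on the 0 h and 6 h libraries and on the scale, and on 2 replicates a group, so shifts under 0.5 on the log2 scale are often missed. Of the 62 genes, 57 kept their call with DESeq2, 51 with library-size scaling, 55 with a minimum of 5 CPM, 54 with no filter, 27 on the ERCC scale and 2 with a slope over the times. 8 genes kept it in every alternative but the slope (MPHOSPH10, PNRC2, SFSWAP, SMIM15, SQLE, TDRD7 and WAC are among them).

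Counts of calls beyond 1.5 times the reported ones were as follows. On the ERCC scale there were 6 from 0 to 3 h, 25 from 3 to 6 h, 6493 at 6 h, 732 at 0 h, 13 against siIGF2BP1 and 2 against siIGF2BP3. With DESeq2 there were 98 from 0 to 6 h, 27 from 0 to 3 h, 5 from 3 to 6 h, 201 against siIGF2BP1 and 60 against siIGF2BP3. A slope gave 2 from 0 to 6 h, library-size scaling 23 from 0 to 3 h, and no filter 34 from 0 to 3 h and 14 from 3 to 6 h. With only the 12 libraries compared there were 26 from 0 to 3 h, 3 from 3 to 6 h, 271 against siIGF2BP1 and 19 against siIGF2BP3. The cause was not tested. Leaving out 1 library gave 18 to 77 from 0 to 6 h, 1 to 18 from 0 to 3 h, 0 to 9 from 3 to 6 h, 1540 to 2390.0 at 6 h, 823 to 1699 at 0 h, 57 to 116 against siIGF2BP1, 8 to 44 against siIGF2BP3 and an IGF2BP2 level of -2.14 to -2.11. Without mitochondrially encoded genes and their copies, an alternative chosen after seeing the data, 53 genes were called from 0 to 6 h (25 and 28).

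Same-numbered libraries of siControl and siIGF2BP2 did not deviate together (correlations of -0.06 to 0.08, none over 0.1), so the numbers were not taken to pair them. The siIGF2BP3 libraries did so among their 3 times (0.18 to 0.24), as did siControl at 6 h with each siIGF2BP3 time (0.13 to 0.29), but siIGF2BP2 with siIGF2BP3 did not (-0.06 to 0.06). With a replicate block of 1 term 67 genes were called from 0 to 6 h, and with a block within each condition 92, both holding all 62. The block within each condition also gave 35 from 0 to 3 h, 5 from 3 to 6 h, 217 against siIGF2BP1 and 86 against siIGF2BP3.

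Values that changed sign were, on the ERCC scale, BPNT2 0.129, HMGA1 0.0603, IGF2BP3 0.175, MT-CO1 0.046, MT-ND5 0.0139, NDRG1 0.0994, NRAS 0.084 and ZDHHC9 0.164. They were IGF2BP3 0.0198 and ZDHHC9 0.0101 with library-size scaling, and IGF2BP3 0.002 with DESeq2. Without 1 library the uncalled BPNT2 was -0.156 to 0.0306, CYRIB -0.0554 to 0.133, IGF2BP3 -0.0658 to 0.0395, NDRG1 -0.303 to 0.106 and ZDHHC9 -0.0722 to 0.0258.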
